A study of Mus musculus with 12 samples.

Results

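Hepatic expression of 10 genes of bile acid synthesis and of the pathway of FXR, the bile acid receptor, is described here in 12 mouse livers, out of 22170 gene names that the transcript table holds. They were chosen by gene name, 9 were found under that name, and the locus of the remaining gene, Slc27a5, carries the name ZBTB45 in the table and was found by its reference transcripts. The livers came from male C57BL/6J mice aged 21 weeks, which had been fed from 5 weeks of age for 16 weeks and were fasted before the livers were taken. Mice of the normal diet (ND) group had no high-fat feed, and the other 3 groups were fed a high-fat diet (HFD) alone, with 1.5% (w/w) ethanol extract of Chrysanthemum morifolium leaves (CLE), or with 0.003% (w/w) luteolin (LU), a flavone constituent of those leaves. The study asked how CLE and LU act on the dyslipidemia of HFD-fed mice. Each group had 3 livers, 1 library per mouse, which the study's methods describe as representative samples of larger groups, and no group received CLE or LU on the normal diet. Expression is given as FPKM, fragment numbers scaled for transcript length and for the number of mapped fragments, summed over the transcripts of each gene.

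Bile acids are made from cholesterol in hepatocytes. The classic pathway starts with Cyp7a1, its rate-limiting enzyme, and Cyp8b1 sets the share of cholic acid, whereas the alternative pathway starts with the side-chain hydroxylase Cyp27a1 and continues through the oxysterol hydroxylase Cyp7b1. Slc27a5 and Baat link bile acids to taurine, the canalicular pump Abcb11 (BSEP) secretes them into bile, and Slc10a1 (NTCP) takes them up again from portal blood. The receptor FXR (Nr1h4) is activated by bile acids and is known to induce Nr0b2 (SHP), a repressor of Cyp7a1 and Cyp8b1, and Abcb11.

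The table holds no read counts, and therefore the depth of the libraries is unknown. Estimates listed at 0 can be failed ones, since albumin was listed at 0 in 11 of 12 livers, while the other 7 hepatocyte markers were abundant in every liver. Libraries of the CLE and LU groups stood apart from those of the ND and HFD groups: the Spearman correlation, across 11318 genes of 1 library, between a gene's GC content and its deviation from the mean of the 12 livers was -0.38 to -0.14 in the 6 ND and HFD livers and 0.16 to 0.48 in the 6 CLE and LU livers. A score of 13 clock genes, higher where Dbp and the Per genes are high and Arntl is low, was -1.74 to -0.39 in ND, -0.63 to 0.36 in HFD and 0.28 to 1.04 in CLE and LU livers. Of the adipocyte markers, Adipoq, Plin1 and Lep were each at or under 0.76 FPKM in every liver and highest in the LU livers, and the fourth, Cfd, was 0.89 to 1.65 FPKM in ND and 58.9 to 104 FPKM in HFD livers. Cfd was 21.8 to 150 FPKM in CLE and 71.3 to 265 FPKM in LU livers, and both groups overlapped HFD. Of all gene names tested, 9.99% were called higher with HFD than with ND. Stellate cell markers summed to 72.6 to 103 FPKM in ND and 128 to 162 FPKM in HFD livers, and 4 of the 6 were called higher with HFD. Of 6 pericentral hepatocyte markers, 3 were called higher with HFD, with sums of 6435 to 7245 FPKM in ND and 8541 to 10210 FPKM in HFD livers. Most of these sums was Cyp2e1, at 4850 to 5570 FPKM in ND and 6003 to 7392 FPKM in HFD livers. Of the other lists, 2 of 6 Kupffer cell, 1 of 4 endothelial and both tested enterocyte markers were called higher with HFD, and none of the 5 periportal, 3 tested cholangiocyte and 8 hepatocyte markers. The sums of ND against HFD livers were 56.9 to 68.9 against 74.8 to 103 FPKM for Kupffer cell, 54.9 to 64.8 against 73.4 to 76.6 FPKM for endothelial and 182 to 201 against 249 to 351 FPKM for enterocyte markers. Nearly all of the enterocyte sum was Fabp2, at 178 to 199 FPKM in ND and 243 to 347 FPKM in HFD livers. The untested enterocyte markers were near the floor, with Fgf15 at 0 and Vil1 at or under 0.256 FPKM in every liver. The part of these cells and zones in the results that follow was not tested. In bulk liver RNA, a change in the number of cells of a type and a change of RNA per cell cannot be told apart.

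RefSeq promoter windows on GRCm38.p6 were found for 6 of the 10 genes, and not for Cyp7a1, Cyp7b1, Baat and Slc27a5. The 250 bases before the start were searched on both strands for the letters GGNCANTGACC, an inverted repeat of the type bound by FXR, CAAGGNCA, a single site of the type bound by Nr5a2 (LRH-1), CAAAGTCCA, of the type bound by Hnf4a, and TTANGTAA, the D-box of Dbp and its relatives. Among 32851 windows of the same length, 0.198%, 5.53%, 0.384% and 2.06% held these letters, respectively. The 3 windows with a match are printed because Cyp8b1 and Nr0b2 differed between the diets and Abcb11 is a known FXR target, and capitals mark the matched letters. In Cyp8b1 (chr9:121916306-121916555, minus strand), the Hnf4a-type letters at -67 to -59 from the start and the Nr5a2-type letters at -60 to -53 share 2 bases. The match of Nr0b2 (chr4:133553126-133553375, plus strand) lies at -201 to -194, and the inverted repeat of Abcb11 (chr2:69342617-69342866, minus strand) at -62 to -52.
Cyp8b1: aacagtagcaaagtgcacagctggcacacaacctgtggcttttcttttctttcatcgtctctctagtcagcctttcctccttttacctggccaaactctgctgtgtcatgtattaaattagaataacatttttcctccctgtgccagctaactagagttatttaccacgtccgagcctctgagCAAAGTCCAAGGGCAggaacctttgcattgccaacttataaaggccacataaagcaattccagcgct
Nr0b2: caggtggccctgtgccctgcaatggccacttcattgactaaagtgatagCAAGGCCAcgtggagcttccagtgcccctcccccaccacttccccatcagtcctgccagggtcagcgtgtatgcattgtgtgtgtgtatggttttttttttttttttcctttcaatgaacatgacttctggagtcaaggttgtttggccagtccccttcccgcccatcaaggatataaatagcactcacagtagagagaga
Abcb11: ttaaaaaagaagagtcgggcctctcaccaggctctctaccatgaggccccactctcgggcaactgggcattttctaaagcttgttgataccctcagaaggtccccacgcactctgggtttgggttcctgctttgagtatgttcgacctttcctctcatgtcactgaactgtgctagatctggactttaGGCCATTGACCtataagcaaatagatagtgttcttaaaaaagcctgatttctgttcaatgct
The windows of Cyp27a1, Nr1h4 and Slc10a1 held none of these letters.

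With HFD, 2 enzymes of synthesis and the uptake transporter fell and the repressor Nr0b2 rose. Cyp8b1, Cyp7b1 and Slc10a1 were lower and Nr0b2 was higher in HFD than in ND livers, so that 4 of the 10 genes were called at an adjusted p under 0.05 (limma on log2(FPKM + 1), Benjamini-Hochberg adjustment over all genes tested). Of the 11566 gene names tested, 12.1% were called in this comparison, 9.99% higher and 2.11% lower. The livers of both groups did not overlap for these 4 genes and for Abcb11, 5 of 10, against 36.5% of all genes tested. Between CLE and HFD livers, limma called none of the 10 genes, where 6.03% of all genes were called, 2.74% higher and 3.29% lower. At an unadjusted p under 0.05 there were 3 of 10 genes, against 29.5% of all genes tested. These 3 were Cyp7a1, Cyp8b1 and Cyp7b1, whose livers did not overlap either, against 31.3% of all genes tested. Between LU and HFD livers, Cyp7a1 was lower, 1 of 10 genes, where 1.03% of all genes were called, 0.303% higher and 0.726% lower, and 5 of 10 genes did not overlap, against 30% of all genes. These comparisons share the HFD livers and are not independent of each other.

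**Figure D1:**
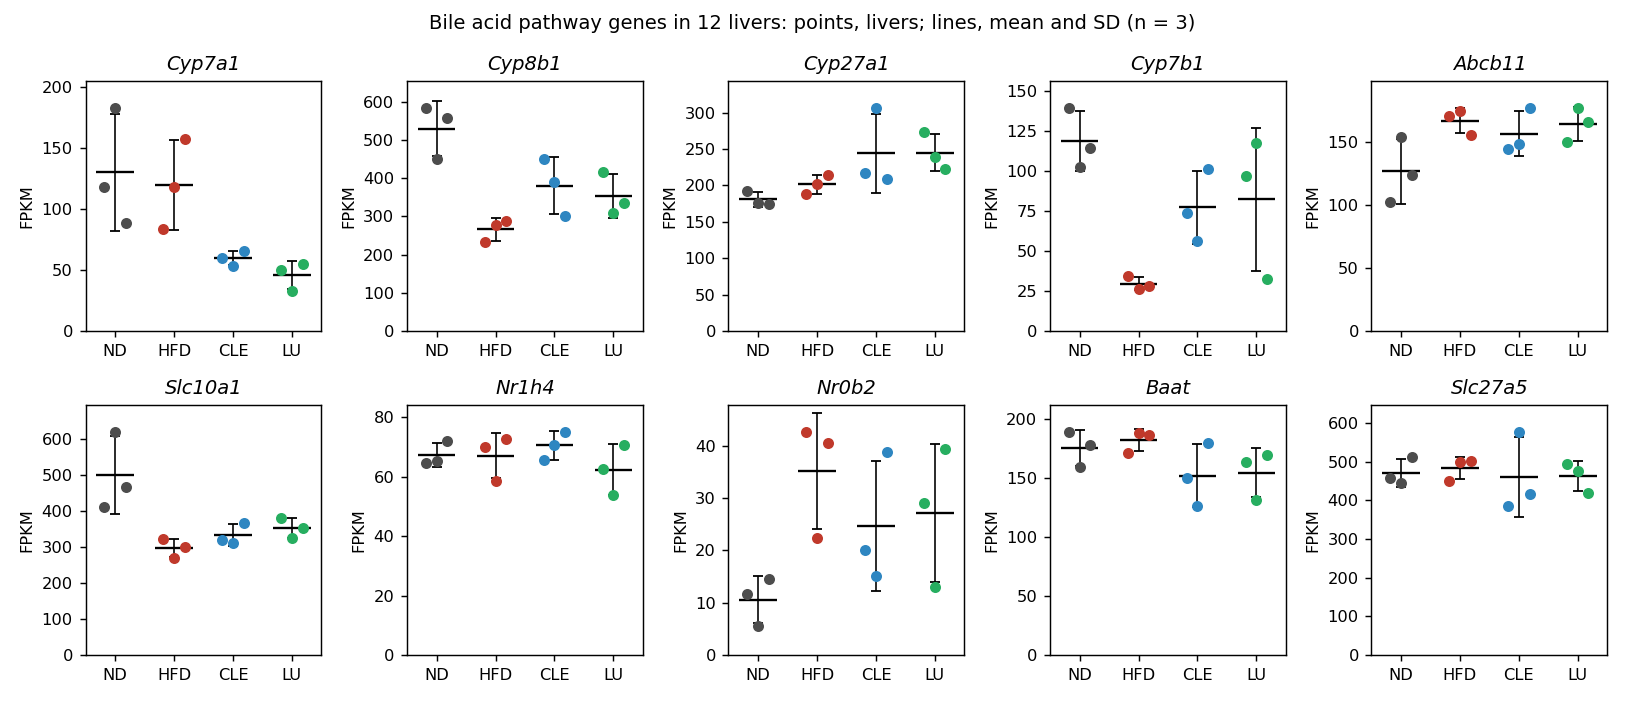
FPKM of the 10 genes (y axes, from 0) in each of the 12 livers, by group on the x axes, with points for livers and lines for the mean and SD of 3. Cyp7b1 was 26.5 to 34.2 FPKM in HFD and 103 to 140 FPKM in ND livers, and Cyp7a1 was 32.9 to 65.5 FPKM in CLE and LU livers and 83.8 to 183 FPKM in ND and HFD livers.

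Cyp7a1 (GRCm38, chromosome 4, 6265612 to 6275633, minus strand) was at 118, 183 and 89.0 FPKM in ND mice 2, 3 and 4, and at 83.8, 118 and 157 FPKM in HFD mice 12, 15 and 18. It was at 60.2, 53.7 and 65.5 FPKM in CLE mice 2, 4 and 11, and at 49.8, 32.9 and 54.8 FPKM in LU mice 2, 3 and 8. All 6 livers of mice given CLE or LU were thus below all 6 livers of ND and HFD mice, whereas ND and HFD livers overlapped. HFD did not move it detectably, with a difference from ND of -0.10 on the log2(FPKM + 1) scale and a 95% interval of -0.68 to 0.48. The difference between LU and HFD was -1.35 ± 0.27 (SE, adjusted p = 0.0395, limma), which is a mean of 45.8 ± 11.5 FPKM against 120 ± 36.7 FPKM (SD, n = 3). Between CLE and HFD it was -0.95 ± 0.27, with a mean of 59.8 ± 5.90 FPKM in CLE livers, and missed the threshold (limma, adjusted p = 0.0535). Against ND, Cyp7a1 was lower both in CLE livers (-1.05, adjusted p = 0.0159, limma) and in LU livers (-1.45, adjusted p = 0.00692, limma). This call of CLE was lost without ND mouse 3, which had the highest value (-0.77, adjusted p = 0.054, limma). It was also lost without CLE mouse 4 (limma, adjusted p = 0.0548), and that of LU was kept in all 12 fits without 1 mouse. With the clock score in the fit, neither passed (limma, adjusted p = 0.293 and 0.212). CLE and LU differed by 0.40 (interval -0.18 to 0.99). The transcript of Cyp7a1 has a GC content of 39.7%, the lowest of the 10 genes. After correction for GC content, chosen after seeing the data, the difference of LU from HFD was -1.17 (limma, adjusted p = 0.077), and with the score of clock genes taken into the fit it was -1.59 (limma, adjusted p = 0.0585). The call was also lost when any 1 of HFD mice 15 and 18, LU mice 2 and 3, ND mouse 2 and CLE mouse 11 was left out, with an adjusted p of 0.0513 to 0.159 (limma).

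Cyp8b1 (chromosome 9, 121914356 to 121916305, minus strand), whose upstream sequence is printed above, was at 583, 449 and 556 FPKM in ND livers and at 232, 277 and 288 FPKM in HFD livers. It was at 449, 391 and 300 FPKM in CLE and at 417, 308 and 335 FPKM in LU livers. HFD livers were below every liver of the other groups, and CLE and LU livers lay between HFD and ND livers, with CLE mouse 2 level with the lowest ND liver. Cyp8b1 fell with HFD by 0.99 on the log2 scale (SE 0.17, adjusted p = 0.00297, limma), from 529 ± 70.9 to 266 ± 29.6 FPKM (SD, n = 3), and lost its call only with the clock score in the fit (limma, adjusted p = 0.0616). The differences from HFD were 0.50 ± 0.17 in CLE livers (limma, adjusted p = 0.0817) and 0.40 ± 0.17 in LU livers (limma, adjusted p = 0.216), and neither passed. Against ND, Cyp8b1 differed by -0.49 in CLE livers, which overlapped ND (limma, adjusted p = 0.0497), and by -0.59 in LU livers, which did not (limma, adjusted p = 0.038). When any 1 of the 12 mice was left out, these calls were kept in 4 of 12 fits for CLE and in 7 of 12 for LU livers, and without CLE mouse 11, the lowest of its group, the difference of CLE was -0.33 (limma, adjusted p = 0.171).

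Of the alternative pathway, Cyp27a1 (chromosome 1, 74713574 to 74737892, plus strand) was at 193, 176 and 174 FPKM in ND, at 188, 202 and 215 FPKM in HFD, at 218, 306 and 208 FPKM in CLE and at 273, 239 and 223 FPKM in LU livers. All LU livers were above all HFD livers, and CLE livers overlapped them. It was called only in CLE against ND (0.41, adjusted p = 0.0498, limma), and without CLE mouse 4, which had the highest value, that difference was 0.24 (limma, adjusted p = 0.167). The call was kept in 2 of 14 other settings and in 2 of 12 fits without 1 mouse. With only the most abundant transcript, the difference was 0.23 (limma, adjusted p = 0.187).

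Cyp7b1 (chromosome 3, 18071950 to 18243338, minus strand) showed the largest difference between the diets among the 10 genes. It was at 140, 103 and 114 FPKM in ND livers and at 34.2, 26.5 and 28.3 FPKM in HFD livers. It was at 74.1, 56.5 and 101 FPKM in CLE livers, and at 96.9, 118 and 32.5 FPKM in LU livers. All CLE livers lay above the HFD livers and below the ND livers, whereas LU mouse 8 was within the HFD range and the other LU livers were near or within the ND range. Cyp7b1 fell with HFD by 1.96 on the log2 scale (SE 0.37, adjusted p = 0.00494, limma), from 119 ± 18.9 to 29.7 ± 4.03 FPKM (SD, n = 3), and lost its call only with the clock score in the fit (limma, adjusted p = 0.0585). The mean of CLE livers was 77.3 ± 22.6 FPKM, which differed from HFD by 1.32 ± 0.37 and missed the threshold (limma, adjusted p = 0.0507). The mean of LU livers was 82.4 ± 44.5 FPKM, which differed from HFD by 1.26 ± 0.37 (limma, adjusted p = 0.106). Without LU mouse 8, the difference of LU was 1.82 (limma, adjusted p = 0.00202) and that of CLE, in which the spread is shared, had an adjusted p of 0.00791 (limma). Over the 12 fits that each left out 1 mouse, LU was called in 1 and CLE in 3. The differences from HFD ranged from 0.91 to 1.82 in LU and from 1.11 to 1.52 in CLE livers. Their adjusted p reached 0.349 and 0.171, respectively (limma).

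**Figure D2:**
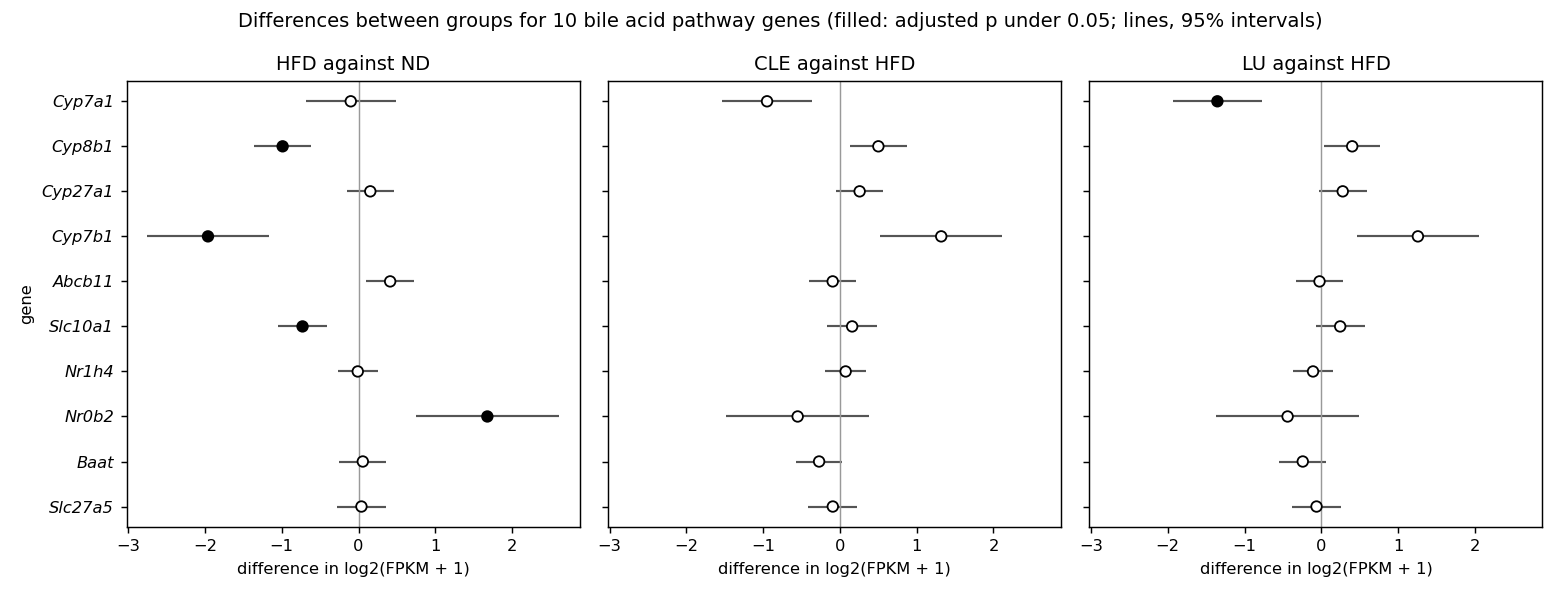
Differences in log2(FPKM + 1) between groups (x axes) for the 10 genes (y axis) in 3 comparisons (HFD against ND, then CLE and LU each against HFD), with 95% intervals as lines and filled points for an adjusted p under 0.05. Filled points are Cyp8b1 (-0.99), Cyp7b1 (-1.96), Slc10a1 (-0.73) and Nr0b2 (1.68) in HFD against ND and Cyp7a1 (-1.35) in LU against HFD.

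Among the transporters, Slc10a1 (chromosome 12, 80953183 to 80968705, minus strand) was at 410, 621 and 468 FPKM in ND and at 322, 270 and 300 FPKM in HFD livers. It was at 320, 310 and 367 FPKM in CLE and at 380, 325 and 354 FPKM in LU livers. Every ND liver was above every other liver. Slc10a1 fell with HFD by 0.73 on the log2 scale (SE 0.15, adjusted p = 0.00777, limma), and kept its call in all 25 alternatives to this comparison. It was also below ND in CLE livers (-0.57, adjusted p = 0.0168, limma) and in LU livers (-0.48, adjusted p = 0.0457, limma). These calls held less well than that of HFD: with its only reference row the differences were -0.33 in CLE and -0.26 in LU livers and neither passed (limma, adjusted p = 0.0795 and 0.172), and when any 1 of the 12 mice was left out, the call was kept in 10 of 12 fits for CLE and in 3 of 12 for LU livers. Without ND mouse 3, which had the highest value, they were -0.40 and -0.32 (limma, adjusted p = 0.0563 and 0.144). The differences of Slc10a1 from HFD were 0.16 (interval -0.16 to 0.48) in CLE and 0.25 (interval -0.08 to 0.57) in LU livers.

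Abcb11 (chromosome 2, 69238282 to 69342616, minus strand) was at 103, 154 and 124 FPKM in ND, at 171, 175 and 156 FPKM in HFD, at 145, 149 and 177 FPKM in CLE and at 150, 178 and 166 FPKM in LU livers. HFD livers were just above ND livers without overlap, by 0.41 ± 0.14, and the difference missed the threshold (limma, adjusted p = 0.0816). Summed over its 20 transcript rows, Abcb11 thus showed no detectable difference of CLE (-0.09, interval -0.40 to 0.22) or LU (-0.02, interval -0.33 to 0.29) from HFD. Its rows told otherwise. The full-length transcript was at 57.3, 113 and 85.4 FPKM in ND and 93.5, 135 and 98.0 FPKM in HFD livers, and at 60.4, 20.6 and 34.7 FPKM in CLE and 31.7, 36.4 and 51.4 FPKM in LU livers. An assembled row that spans 9152 bases at the 3′ end of the locus was at 26.5, 15.9 and 10.2 FPKM in ND, 45.2, 8.64 and 23.7 FPKM in HFD, 48.9, 85.1 and 83.1 FPKM in CLE and 73.6, 90.6 and 66.1 FPKM in LU livers. The short row was thus higher, and the full-length transcript lower, in CLE and LU than in HFD livers, without overlap. With the full-length transcript in place of the sum, Abcb11 was lower in CLE than in HFD livers by 1.58 on the log2 scale (limma, adjusted p = 0.0445), and the difference of LU was -1.44 (limma, adjusted p = 0.0775). The short row was picked for description after its values were seen, whereas the full-length transcript entered as the one with the highest mean, an alternative applied to every gene.

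**Figure D3:**
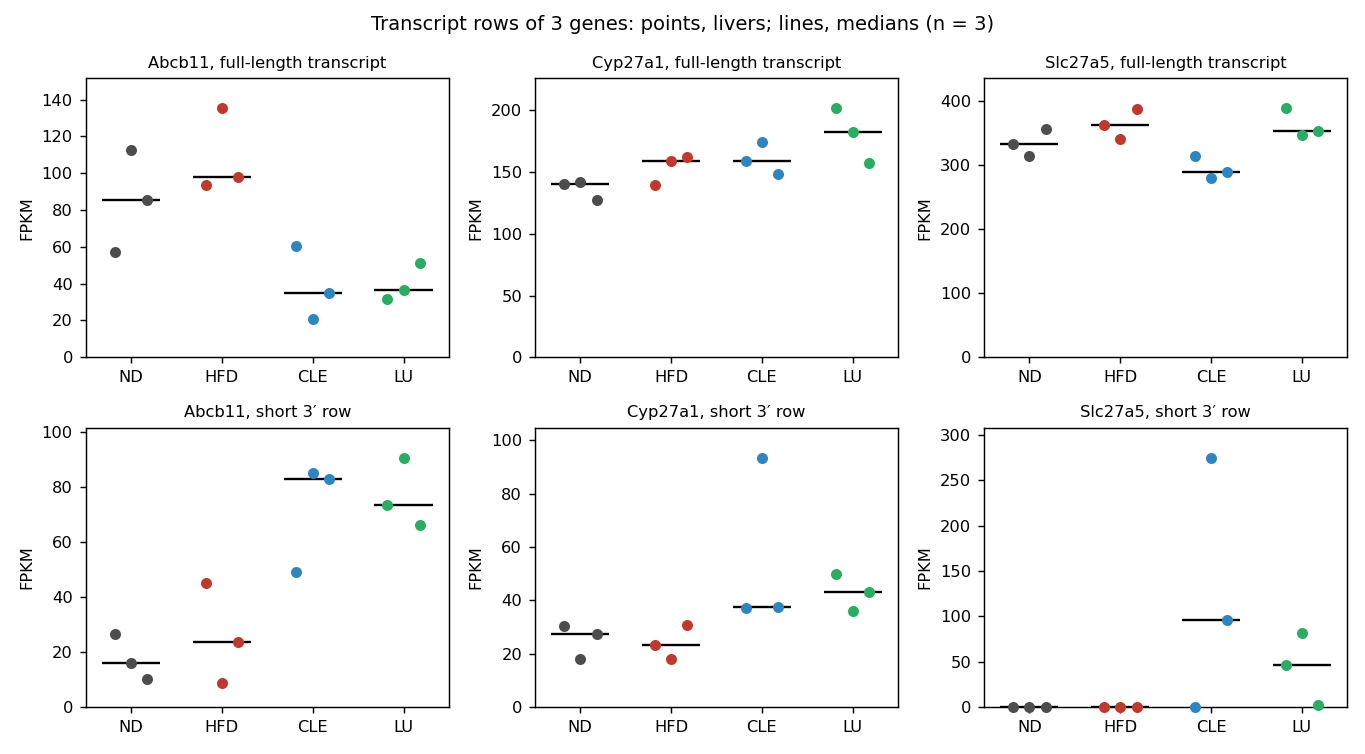
FPKM (y axes, from 0) of the full-length transcript and of a short row at the 3′ end of Abcb11, Cyp27a1 and Slc27a5 in each liver, by group on the x axes, with points for livers and lines for medians. The short row of Abcb11 was 66.1 to 90.6 FPKM in LU and 8.64 to 45.2 FPKM in HFD livers, and that of Slc27a5 was near 0 in all ND and HFD livers.

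Short rows near the 3′ end were higher in most CLE and LU libraries at 2 more of the 10 genes. Another short row at the 3′ end of Abcb11, a reference transcript, was near 0 in every liver. At Cyp27a1, a row spanning 1366 bases was at 17.8 to 30.7 FPKM in the 6 ND and HFD livers and at 36.2 to 93.4 FPKM in the 6 CLE and LU livers, with the highest value in CLE mouse 4. At Slc27a5 (chromosome 7, 12988346 to 12998192, minus strand), a row spanning 769 bases was near 0 in all ND and HFD livers and in CLE mouse 2, at 275 and 95.7 FPKM in CLE mice 4 and 11, and at 46.4, 81.1 and 2.43 FPKM in LU mice 2, 3 and 8. These libraries are also the ones with the other sign of the GC correlation, whose part in these rows was not tested.

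Of the conjugating enzymes, Slc27a5, the bile acid CoA ligase, was at 457, 444 and 513 FPKM in ND, at 451, 499 and 501 FPKM in HFD, at 385, 578 and 417 FPKM in CLE and at 494, 477 and 420 FPKM in LU livers. The groups overlapped, and CLE differed from HFD by -0.09 (interval -0.41 to 0.23). A reference row spanning 9841 bases, which is not plotted, was at 85.3 to 154 FPKM in ND and HFD livers. It was at 16.5 to 66.4 FPKM in CLE and LU livers. The plotted full-length row was at 341 to 387 FPKM in HFD, 280 to 315 FPKM in CLE and 347 to 389 FPKM in LU livers. These rows were described after their values were seen. Without the row of 769 bases, which carries 47.5% of the sum in CLE mouse 4, the difference of CLE was -0.53 from HFD and -0.49 from ND. The row was singled out after its values were seen, near 0 in ND and HFD livers and high in CLE mice 4 and 11. Leaving it out can therefore only lower these differences, and they are given with no test. Baat (chromosome 4, 49489422 to 49506557, minus strand), which joins the activated bile acid to taurine or glycine, was at 189, 159 and 178 FPKM in ND and at 171, 188 and 186 FPKM in HFD livers. It was at 150, 126 and 180 FPKM in CLE and at 163, 131 and 170 FPKM in LU livers. LU livers lay below HFD livers without overlap, and the difference of -0.24 ± 0.14 did not pass (limma, adjusted p = 0.341).

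The receptor gene Nr1h4 (chromosome 10, 89454234 to 89533585, minus strand) varied least, by the ratio of the highest to the lowest liver. It was at 64.7, 65.4 and 72.1 FPKM in ND, 70.1, 58.6 and 72.7 FPKM in HFD, 65.7, 70.7 and 75.2 FPKM in CLE and 62.5, 53.7 and 70.8 FPKM in LU livers. All groups overlapped, and the interval of HFD against ND was -0.27 to 0.25 on the log2 scale. Nr0b2 (chromosome 4, 133553376 to 133556536, plus strand), for which the table has a single row, was at 11.6, 5.61 and 14.4 FPKM in ND and at 42.7, 22.4 and 40.4 FPKM in HFD livers. It was at 20.0, 15.1 and 38.8 FPKM in CLE and at 29.0, 13.0 and 39.3 FPKM in LU livers. HFD livers were all above ND livers, and CLE and LU livers spread over the range between them. Nr0b2 rose with HFD by 1.68 on the log2 scale (SE 0.43, adjusted p = 0.024, limma), from 10.6 ± 4.51 to 35.2 ± 11.1 FPKM (SD, n = 3). This call was lost when any 1 of ND mice 2 and 3 and HFD mice 12 and 18 was left out, with an adjusted p of 0.0599 to 0.091, and after correction for GC content (limma, adjusted p = 0.0543). Nr0b2 differed from HFD by -0.55 (interval -1.48 to 0.38) in CLE and by -0.44 (interval -1.37 to 0.49) in LU livers.

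CLE and LU livers were not distinguished by any of the 10 genes. None was called by limma, with or without the variance trend, where 0.00865% of all genes were called. None had an unadjusted p under 0.05, against 4.39% of all genes, and all overlapped, against 7.08% of all genes without overlap. The intervals were wide for some of them, from -0.73 to 0.85 on the log2 scale for Cyp7b1 and from -1.04 to 0.82 for Nr0b2. Against ND, 4 of 10 genes were called in CLE livers (27% of all genes) and 3 of 10 in LU livers (14.9% of all genes). Livers did not overlap with ND for 5 of 10 genes in CLE (42.4% of all genes) and for 4 of 10 in LU livers (40.9% of all genes). Cyp7a1, Cyp8b1 and Slc10a1 were lower in both, and with the clock score in the fit limma called none of the 10 genes in either. How many of all genes were called with that score is not given here. With the values as deposited, 20.9% of all genes were called higher and 6.08% lower in CLE livers, and 11.2% higher and 3.78% lower in LU livers, but this direction depended on the scaling. The median difference over all genes was itself above 0, at 0.11 on the log2 scale for HFD, 0.16 for CLE and 0.12 for LU against ND, and median-of-ratios scaling took the share of higher genes among those called from 82.6% to 55.2% for HFD, from 77.5% to 43.0% for CLE and from 74.7% to 40.7% for LU against ND.

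Other genes of the pathway were taken from 3 lists, which hold 55 measured genes, of which 51 were tested. With HFD, 17 of the 51 were called, 15 of them higher, where 12.1% of all genes were called and 82.6% of those were higher. The 17 calls became 9, of which 7 were higher, with median-of-ratios scaling. The share of all genes called with that scaling is not given here. Of 18 other genes of synthesis, 5 were higher and 1 was lower with HFD, against 9.99% and 2.11% of all genes. Cyp2c70, which makes muricholic acids in mice, rose from 67.7 ± 4.07 to 154 ± 17.6 FPKM (1.17, adjusted p = 0.0063, limma), and Cyp2a12, a bile acid hydroxylase, from 264 ± 20.7 to 601 ± 36.2 FPKM (1.18, adjusted p = 9.03e-05, limma). Hsd3b7, the steroid dehydrogenase of the second step of synthesis, rose by 0.34, the peroxisomal oxidase Acox2 by 0.45 and the cholesterol hydroxylase Cyp46a1 by 0.78 on the log2 scale. Cyp46a1 was low, at 1.26 to 3.11 FPKM in ND and 3.61 to 4.75 FPKM in HFD livers. Abcd3, a peroxisomal importer, fell by 0.55.

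Of 15 other transport genes, 8 were higher and 1 was lower with HFD, against 9.99% and 2.11% of all genes. Slco1a1, an organic anion uptake carrier of the sinusoidal membrane, was at 159, 172 and 150 FPKM in ND and at 18.4, 11.4 and 17.9 FPKM in HFD livers, a fall by 3.28 on the log2 scale (SE 0.35, adjusted p = 0.000108, limma). The sterol exporters Abcg5 and Abcg8 rose by 2.01 (adjusted p = 3.12e-06, limma) and 1.35, respectively, with Abcg5 at 26.7 to 30.7 FPKM in ND and 107 to 131 FPKM in HFD livers. The basolateral exporter Abcc3 rose by 1.28, the epoxide hydrolase Ephx1 by 1.18 and the exporter Abcb1a by 1.00. Abcb1a was low, at 0.42 to 0.54 FPKM in ND and 1.78 to 2.26 FPKM in HFD livers. The uptake carrier Slco1b2 (0.10), the phosphatidylcholine floppase Abcb4 (-0.11) and Slc51b (-0.01), a subunit of the basolateral bile acid exporter at under 1 FPKM in every liver, were not called. Of 18 regulators, 2 were called and both were higher, where 9.99% of all genes were called higher. They were the nuclear receptor Nr1i3 (0.93, adjusted p = 0.0326, limma) and Mafg, a repressor that FXR is known to induce (0.74, adjusted p = 0.0458, limma). The bile acid-sensing route from the intestine acts through Fgfr4 and its partner Klb, whose differences with HFD were 0.23 and -0.22, and neither was called. Nr5a2 (0.21), Hnf4a (0.05) and Rxra (-0.20) were not called. Fgf15, the intestinal hormone of this route, was listed at 0 in every liver.

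**Figure D4:**
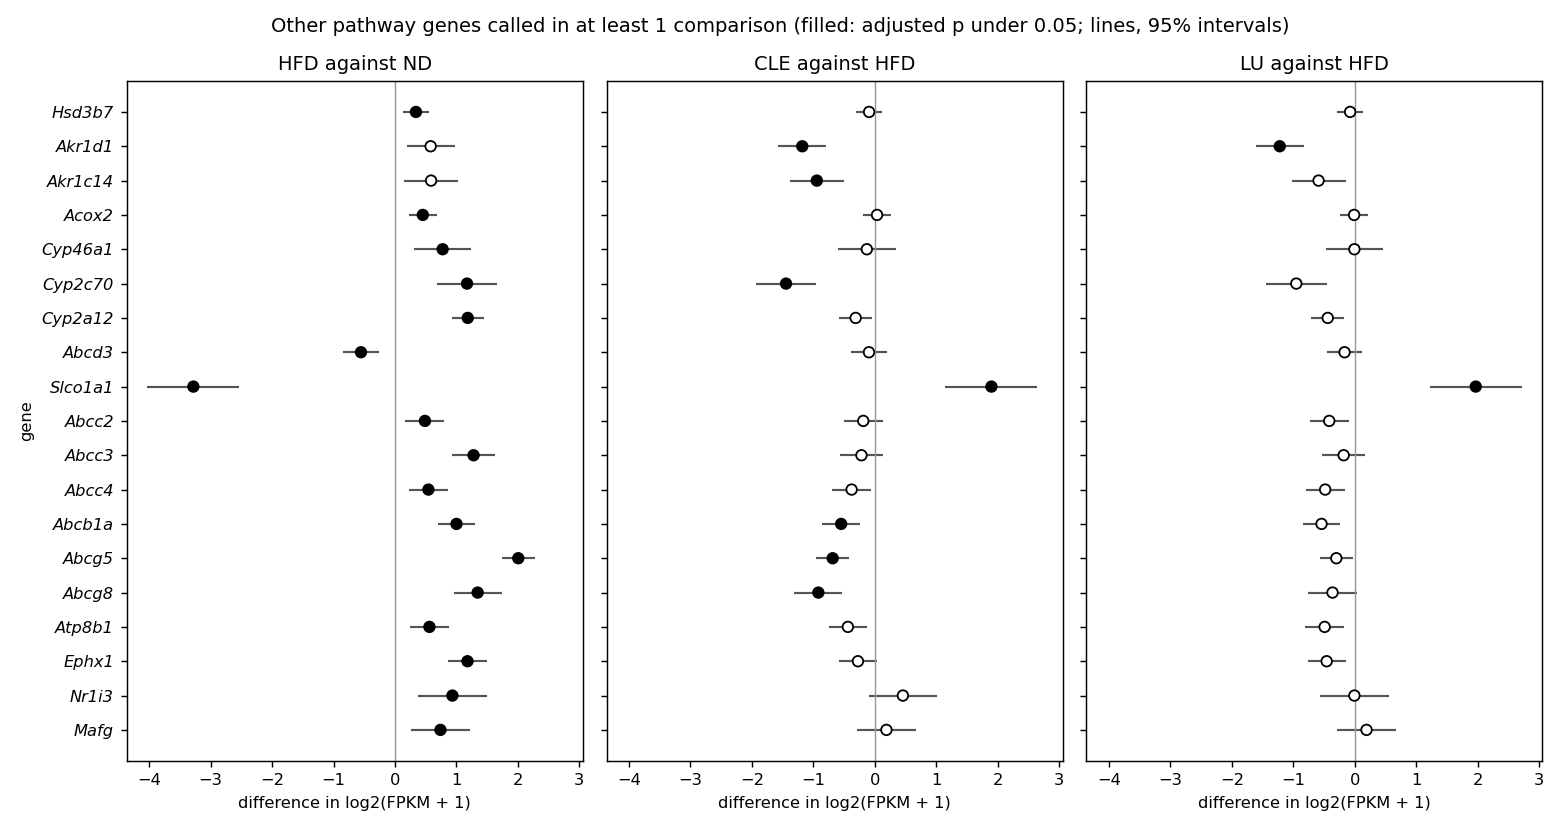
Differences in log2(FPKM + 1) between groups (x axes) for the 19 other pathway genes (y axis) called in at least 1 of the same 3 comparisons, with 95% intervals as lines and filled points for an adjusted p under 0.05. Slco1a1 is at -3.28 with HFD and at 1.90 and 1.97 in CLE and LU against HFD, and Abcg5 and Abcg8 are at 2.01 and 1.35 with HFD and at -0.69 and -0.92 in CLE against HFD.

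Between CLE and HFD livers, 7 of the 51 genes were called, 6 of them lower, where 2.74% of all genes were called higher and 3.29% lower. With the clock score in the fit, none of the 51 was called. The share of all genes called in that fit is not given here. Cyp2c70 was lower in CLE livers (46.9, 45.2 and 81.6 FPKM) than in HFD livers (153, 172 and 137 FPKM), by 1.45 on the log2 scale (adjusted p = 0.0107, limma). Akr1d1, a steroid reductase of bile acid synthesis, was at 45.2 ± 7.99 FPKM in CLE and 103 ± 7.32 FPKM in HFD livers (-1.18, adjusted p = 0.0091, limma), and Akr1c14, a hydroxysteroid dehydrogenase, was lower by 0.94. Abcg5 was lower by 0.69, Abcg8 by 0.92 and Abcb1a, at 0.79 to 1.29 FPKM in CLE livers, by 0.55 on the log2 scale. Slco1a1 was higher, at 61.5, 38.2 and 95.2 FPKM in CLE livers (1.90, adjusted p = 0.0187, limma). Between LU and HFD livers, 2 of the 51 were called, where 1.03% of all genes were called. They were Akr1d1 at 44.2 ± 9.60 FPKM in LU livers (-1.22, adjusted p = 0.0095, limma) and Slco1a1 at 81.1, 90.4 and 35.4 FPKM (1.97, adjusted p = 0.0187, limma). LU mouse 8, which had the lowest Cyp7b1 of its group, also had the lowest Slco1a1. Klb was at 6.62 ± 1.73 FPKM in CLE and 6.35 ± 0.87 FPKM in LU livers, against 10.1 ± 1.39 FPKM with HFD, and did not pass in either (limma, adjusted p = 0.0569 and 0.0923), while it was called lower than in ND in both (-0.78 and -0.81). Hsd3b7, Hnf4a, Rxra, Nr5a2, Fgfr4, Slco1b2, Abcb4 and Slc51b were not called in CLE or LU against HFD. Between CLE and LU, limma called none of the 51, and 4 had an unadjusted p under 0.05, against 4.39% of all genes.

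The genes whose log2(FPKM + 1) followed that of a member most closely over the 12 livers are given as a description, since the livers share diets and libraries. For Cyp7b1 they were the urinary protein gene Mup21 (Pearson r = 0.97), the steroid dehydrogenase gene Hsd3b5 (r = 0.96) and Slco1a1 (r = 0.95). For Cyp7a1 they were Vnn3, Mmd2 and Kpna6 (r = 0.96, 0.92 and 0.91), for Cyp8b1 Lamb3, Cluh and Pctp (r = 0.96, 0.94 and 0.91), and for Nr0b2 Gcnt2, Cyp2d26 and Cyp2c44 (r = 0.93, 0.92 and 0.91).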

How the data were processed

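RNA of 12 mouse livers was sequenced from TruSeq libraries as paired reads of 100 bases. The submitters' processing notes name CASAVA 1.8.2, Bowtie2 2.2.3, TopHat2 2.0.12 and Cufflinks 2.2.1. The values were deposited as FPKM per transcript by the authors, with 1 column per mouse. Normalization factors from edgeR and DEGES are named in the methods, and whether these values include them is not stated in the sources used here. The build is not given in the sources used here. Of 78786 known transcripts, 85.5% matched GENCODE M21 on GRCm38 in both start and end, which was used for coordinates. Cufflinks shares fragments out among overlapping transcripts, so its transcript values are estimates, and reads from both strands of a locus may not have been told apart.

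FPKM values were summed by gene name over 152210 rows. Slc27a5, and Mafg of the other pathway genes, were summed by M21 gene instead (11990 genes tested, 11.7% called with HFD). For genes whose mean over the livers reached 0.5 FPKM, limma 3.58.1 (R 4.3.3) was fitted to log2(FPKM + 1) of all 12 livers at once, with a coefficient for each group and a variance trend. All tests were two-sided, and p-values were adjusted by Benjamini-Hochberg over all genes tested at 0.05. Fold changes on this scale understate those of low genes. The p-values rest on the spread between mice within groups, pooled for each gene over all groups and moderated across genes. The labels of the CLE livers were matched to columns that abbreviate the group differently. The fit was tested on simulated data.

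All 10 members are named in the text, with the other pathway genes that passed in HFD against ND or in CLE or LU against HFD (at most 6 per list and comparison, by size; the plot shows all) and 10 more named whatever they did. The 10 members and all lists were chosen with earlier results of these data known. The alternatives were other filters (none, or a mean of 5 FPKM), other scalings (median-of-ratios, quantile), a pseudocount of 0.1, only the groups compared, no variance trend, only the most abundant transcript, only rows of a reference transcript, the clock-gene score as a covariate, the mouse number as a block, and each mouse left out. Corrections for GC content and length, sums by M21 gene and Slc27a5 without its short row were added after seeing the data. Plasma lipids were not analysed here.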

Additional observations from a re-analysis of the deposited data

How the results depend on the processing

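Among the called differences of HFD against ND, that of Slc10a1 passed in every alternative, and those of Cyp8b1 and Cyp7b1 in every alternative but the clock-gene score as a covariate (limma, adjusted p = 0.0616 and 0.0585). That of Nr0b2 also lost its call with no filter on low values, with quantile normalization, with the transcript of the highest mean, with the clock-gene score and with both corrections (limma, adjusted p from 0.0503 to 0.0632). Of the 10 genes, 4 were called with HFD, and 1 with the clock-gene score. Of CLE against HFD, where none was called, 2 were called at a mean of at least 5 FPKM, and 1 each with median-of-ratios scaling, quantile normalization, only the groups compared, the transcript with the highest mean and only rows of a reference transcript. Of LU against HFD, the 1 call became 0 with no filter, the clock-gene score, the GC correction and the GC and length correction. Of CLE against ND, the 4 calls became 2 with no filter, the transcript with the highest mean, reference rows or sums by M21 gene, 1 with only the groups compared and 0 with the clock-gene score. Of LU against ND, the 3 calls became 1 with no filter and 0 with the clock-gene score. Of the other pathway genes, the 17 calls with HFD became 9 with median-of-ratios scaling or reference rows, 11 with quantile normalization or the GC correction, 8 with the transcript of the highest mean and 7 with the clock-gene score. For CLE against HFD, 7 became 3 with no filter, 4 with only the groups compared and 0 with the clock-gene score, and for LU against HFD, 2 became 1 with no filter, 4 with reference rows and 0 with the clock-gene score. For CLE against ND, 18 became 0 with the clock-gene score, and for LU against ND, 16 became 10 with no filter and 1 with the clock-gene score. In the fit without these changes, 27% of all genes were called in CLE and 14.9% in LU against ND. The shares of all genes called in the changed fits, and in those below without 1 mouse, are not given here. Fewer calls there are thus not read as a result about these genes. The clock-gene score differs between the groups, and the SE of the members that lost their calls was larger with it. With HFD, Cyp7b1 went from -1.96 ± 0.37 to -2.05 ± 0.52 (SE). Cyp8b1 went from -0.99 ± 0.17 to -0.94 ± 0.24, and Nr0b2 from 1.68 ± 0.43 to 2.21 ± 0.57. In CLE against ND, Cyp7a1 went from -1.05 to -1.63 and Slc10a1 from -0.57 to -0.93. There, Cyp8b1 went from -0.49 to -0.42 and Cyp27a1 from 0.41 to 0.12. The cause of the lost calls was not tested.

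ND, CLE and LU mice share mouse numbers, which the labels do not tie to a litter, batch or day. The correlation of deviations was -0.26 to 0.18 in the 5 pairs with the same number and -0.21 to 0.22 in the 49 others. With the number as a replicate block, no member was called in CLE against ND (0 of 10) or LU against ND (0 of 10), 5 and 2 of the other pathway genes were called there, and the differences that turned sign were Cyp7b1 in CLE against LU (-0.65), Nr1h4 in CLE against ND (-0.03) and Slc27a5 in LU against ND (0.16). The share of all genes called with this block is not given here. No number of the HFD mice recurs elsewhere.

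Without 1 mouse, the members called ranged from 3 to 4 in HFD against ND, from 0 to 2 in CLE against HFD, from 0 to 2 in LU against HFD, from 0 (without CLE mouse 4) to 4 in CLE against ND and from 1 to 4 in LU against ND. The other pathway genes called ranged from 9 to 18 in HFD against ND (9 without ND mouse 2, HFD mouse 12 or HFD mouse 18), from 0 (without HFD mouse 15) to 16 (without CLE mouse 2) in CLE against HFD, from 0 (without HFD mouse 15 or LU mouse 3) to 5 in LU against HFD, from 12 to 20 in CLE against ND and from 10 to 18 in LU against ND.

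Other differences that turned sign were not called, except where rows replaced the sum of Abcb11. Not all were near 0, and without LU mouse 8, Cyp7b1 turned to -0.50 in CLE against LU. Against ND, Abcb11 turned to -1.20 in CLE (limma, adjusted p = 0.0362) and -1.05 in LU livers with the transcript of the highest mean, and to -1.17 (limma, adjusted p = 0.0314) and -1.005 with reference rows. With the former, Nr1h4 turned to -0.14 in CLE and Slc27a5 to 0.12 in LU against ND, and Baat to 0.017 in CLE against LU. With median-of-ratios scaling, HFD against ND turned to -0.10 for Baat, -0.0060 for Cyp27a1 and -0.12 for Slc27a5, Nr1h4 to -0.11 in CLE against ND and Abcb11 to 0.0060 in LU against HFD. Quantile normalization turned Nr1h4 to -0.042 in CLE against ND and Slc27a5 to -0.061 with HFD. The clock-gene score turned Baat to 0.10 in CLE and 0.14 in LU against ND, and Cyp27a1 to -0.029 and Slc27a5 to -0.049 with HFD. The GC correction turned Abcb11 to 0.017 in CLE and 0.095 in LU against HFD, and Baat to -0.058 and Slc27a5 to -0.10 with HFD. The GC and length correction turned Abcb11 to 0.052 and 0.14, Baat to -0.068, Cyp27a1 to -0.0021 and Slc27a5 to -0.10 in these comparisons. Without 1 mouse, ranges that crossed 0 were, with HFD, -0.34 to 0.17 for Cyp7a1, -0.069 to 0.083 for Nr1h4, -0.012 to 0.11 for Baat and -0.0042 to 0.10 for Slc27a5, in CLE against HFD -0.018 to 0.13 for Nr1h4 and -0.27 to 0.024 for Slc27a5, and in LU against HFD -0.079 to 0.041 for Abcb11 and -0.11 to 0.0072 for Slc27a5. For CLE against LU they were -0.16 to 0.097 for Baat, -0.20 to 0.081 for Cyp27a1, -0.50 to 0.41 for Cyp7b1, -0.032 to 0.26 for Cyp8b1, -0.55 to 0.21 for Nr0b2 and -0.21 to 0.086 for Slc27a5, and for Slc27a5 -0.23 to 0.062 in CLE and -0.072 to 0.045 in LU against ND.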
